A study of Mus musculus with 6 samples.

Results

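Complement is an extracellular protein cascade, and 9 of its genes were followed in injured and uninjured mouse muscle: the 3 C1q subunit genes C1qa, C1qb and C1qc, the central components C3, C4b and Cfb, the receptor genes C3ar1 and C5ar1, and the membrane regulator Cd55. They were taken by gene symbol, and each of the 9 symbols matched 1 of the 32285 features of the count matrices. C1q binds immune complexes and dying cells and starts the classical pathway, in which C4 is cleaved before C3. Factor B, the product of Cfb, forms the C3-cleaving enzyme of the alternative pathway, and fragments released from C3 and C5 act on myeloid cells through the receptors encoded by C3ar1 and C5ar1. In tissues, C1q is known as a product of macrophages, whereas C3 is made by liver and by many local cell types, fibroblasts among them. Damaged muscle has to be cleared of fibre remains by neutrophils and macrophages before it regenerates, and complement is one of the systems known to mark such material.

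Mononucleated cells were dissociated from tibialis anterior muscles of both hindlimbs of wildtype mice, sorted as single cells negative for propidium iodide, a dye that enters dead cells, and captured with the droplet-based 10x Genomics 3′ assay, which counts each captured transcript once by a unique molecular identifier (UMI). The 6 libraries came from uninjured muscle (day 0) and from muscle 1 and 3 days after injury with cardiotoxin, a snake venom toxin that kills muscle fibres, and on each day cells were taken at ZT16 and at ZT4 (zeitgeber time, hours of the light-dark cycle). The strain, sex, age and number of the mice, and whether a library pooled animals, are not given in the sources used here. With 1 library for each day and collection time there was no replicate and no test. Every difference given here is a difference between single libraries, and its interval covers counting error only.

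The libraries held 72747703 to 132221721 UMIs, and 58469 of 68724 barcodes were kept after filters on depth, mitochondrial share and doublets. Kept cells of day 0 had median depths of 4830 UMIs at ZT16 and 5004 at ZT4, those of day 1 had 4610 and 3173, and those of day 3 had 11120 and 11060. Pairs of libraries shared 18 to 53 of their kept barcodes. Cells fell into 40 clusters, of which 32 were named as 15 classes from marker genes, and clusters that could not be named are given by their leading gene pair. No complement gene served as a marker or entered the clustering. Levels are UMIs of the gene per 1000000 UMIs of the class in that library, written CPM, and are given for classes of at least 50 cells. The Lyve1-Folr2 macrophage-like class was named from 11 markers of its list, and Lyve1, Cd163, Timd4 and Folr2 were among its leading genes. Csf1r, a marker from the monocyte-macrophage list, was at 1539 CPM at ZT16 and 1538 CPM at ZT4 in this class on day 0.

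All 9 genes lie on the minus strand in GRCm38 with the GENCODE vM21 annotation. C1qb (chr4:136880129-136886187), C1qc (chr4:136889804-136893065) and C1qa (chr4:136895917-136898803) are neighbours within 18675 bases of chromosome 4. C3 lies at chr17:57203970-57228136, C4b at chr17:34728380-34743882 and Cfb at chr17:34856374-34862518. The receptor gene C3ar1 lies at chr6:122847138-122856161 and C5ar1 at chr7:16246743-16259540, and Cd55 lies at chr1:130439027-130462744. The sequences upstream of the start of C1qb and C1qc are shown because these genes had near-identical cell patterns, and that of C3 because its pattern differed from theirs. They are RefSeq sequences on GRCm38.p6, minus strand, written 5′ to 3′ and cut where the first exon begins. In the C1q sequences capitals mark GAGGAA or its reverse complement TTCCTC, the core bound by PU.1, a transcription factor of macrophages. In the C3 sequence they mark a match to TTGCNNAA, the core bound by C/EBP factors.
C1qb, chr4:136886201-136886450: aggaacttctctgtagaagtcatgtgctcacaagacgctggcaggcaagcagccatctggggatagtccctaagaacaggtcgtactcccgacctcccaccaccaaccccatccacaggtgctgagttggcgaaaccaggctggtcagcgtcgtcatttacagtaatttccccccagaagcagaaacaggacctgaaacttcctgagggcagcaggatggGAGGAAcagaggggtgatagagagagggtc
C1qc, chr4:136893066-136893164: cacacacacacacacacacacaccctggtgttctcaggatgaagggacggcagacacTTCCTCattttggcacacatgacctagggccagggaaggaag
C3, chr17:57228137-57228386: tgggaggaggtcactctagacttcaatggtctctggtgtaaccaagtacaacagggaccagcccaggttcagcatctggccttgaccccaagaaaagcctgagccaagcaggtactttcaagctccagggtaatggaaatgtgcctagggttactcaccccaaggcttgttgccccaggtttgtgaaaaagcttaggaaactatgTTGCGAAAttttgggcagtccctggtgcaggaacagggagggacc
Of the 9 genes, 6 matched the promoter table, and the windows of 5 were searched on both strands. GAGGAA was found in 23.3% of 32851 promoters of 250 bases, and TTGCNNAA in 9.56%. GAGGAA matched once in the C1qb window and once in the shorter C1qc window, and not in those of C3, C3ar1 and Cd55. The C/EBP core matched once in the C3 window and in no other. CACGTG, the E-box bound by the clock factors CLOCK and BMAL1, was found in 6.02% of promoters, and these letters were not in any of the 5 windows. TGCTGA, the half-site of MAF factors, was found in 16.1% of promoters and was in the C1qb, C3, C3ar1 and Cd55 windows. An NF-kB motif was found in 17.6% of promoters and was in the C1qb, C3 and Cd55 windows.

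In uninjured muscle nearly all C1q transcripts came from 1 class. The Lyve1-Folr2 macrophage-like cells, tissue-resident macrophages by their markers, made up 5.66% of kept cells at ZT16 and 9.19% at ZT4 and held 90.4% and 92.02% of C1qa UMIs. C1qa, the A chain of C1q, stood at 5754 CPM at ZT16 and 4668 CPM at ZT4 in these cells. C1qb, the B chain, stood at 5000 CPM at ZT16 and 4041 CPM at ZT4, and C1qc, the C chain, at 3965 CPM at ZT16 and 3435 CPM at ZT4. The intact C1q protein needs all 3 chains, and 96.7% of these cells at ZT16 and 96.5% at ZT4 held at least 1 UMI of each gene. With every cell thinned to 1000 UMIs those shares were 89.2% and 84.2%. In endothelial-like cells of day 0, a class known to lack C1q, 2.8% of cells at ZT16 and 2.4% at ZT4 held a C1qa UMI. The median depth of the Lyve1-Folr2 cells was 7555 UMIs at ZT16 and 6653 at ZT4, and that of the endothelial-like cells 2842 and 2526.

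After injury the monocyte-macrophage-like class held most of the C1q UMIs. It took 73.1% of C1qa UMIs at ZT16 and 67.9% at ZT4 on day 3, and 94.4% and 96.0% on day 1. Cluster Cbr2-Ccl8, left unnamed, held 19.7% of C1qa UMIs at ZT16 and 22.3% at ZT4 on day 3. With cells clustered at resolution 2.0 a cluster led by the same genes was named Lyve1-Folr2 macrophage-like. In the monocyte-macrophage-like class C1qa was at 2599 CPM at ZT16 and 2447 CPM at ZT4 on day 3, and at 697.6 and 491.7 CPM on day 1. C1qb was at 3823 CPM at ZT16 and 3794 CPM at ZT4 on day 3, and at 1097 and 727.6 CPM on day 1. C1qc was at 1723 CPM at ZT16 and 1775 CPM at ZT4 on day 3, and at 414.3 and 257.3 CPM on day 1. For each subunit both libraries of day 3 were above both libraries of day 1. As log2 differences of day 3 over day 1, C1qb was 1.80 at ZT16 (95% interval 1.79 to 1.81) and 2.38 at ZT4 (2.37 to 2.40), C1qa 1.90 and 2.31, and C1qc 2.06 and 2.79. Different clusters filled the class on the 2 days. On day 3 it was held by cluster Cxcl10-Ifit2, led by interferon-induced genes, with 1967 cells at ZT16 and 1429 at ZT4, and by cluster Gpnmb-Syngr1 with 1629 and 2145. On day 1 it was held by cluster Arg1-Ppbp, with 2866 cells at ZT16 and 1977 at ZT4, and by cluster Dmkn-Vcan, with 1140 and 1818.

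Within the injured muscle the summed level of the 3 subunits separated the macrophage clusters. Cluster Dmkn-Vcan, whose leading genes include the monocyte genes Vcan and Chil3, had 855.6 CPM at ZT16 and 356.1 CPM at ZT4 on day 1. Cluster Arg1-Ppbp had 4117 CPM at ZT16 and 4995 CPM at ZT4 on day 3, where it held 68 and 107 cells, and 2585 and 2244 CPM on day 1, so the level was also higher on day 3 within this cluster. On day 3 cluster Gpnmb-Syngr1 had 7946 and 8106 CPM and cluster Cxcl10-Ifit2 had 8598 and 8332 CPM, which are close together although their other leading genes differ. Cluster Cbr2-Ccl8 shares the markers Folr2 and Mrc1 with the resident class. It had 8849 CPM at ZT16 and 8854 CPM at ZT4 on day 3, and 5175 CPM at ZT16 on day 1. None of these reached the 14719 and 12144 CPM of the resident class on day 0. A dividing cluster of day 3, Hist1h2ap-Mki67, had 5078 CPM at ZT16 and 5256 CPM at ZT4. It was named dendritic-like from its markers and lifted that class, since the dendritic cluster Cd209a-Klrd1 had only 326.3 and 319.5 CPM on day 3. In each of the 3 libraries that hold at least 50 cells of both, C1qa was higher in cluster Cbr2-Ccl8 than in the monocyte-macrophage-like class. On day 3 C1qa was at 3281 CPM at ZT16 and 3016 CPM at ZT4 in the cluster, against 2599 and 2447 CPM in the class. On day 1 at ZT16 it was at 1782 CPM against 697.6 CPM. C1qc was in the same order in these libraries. C1qb was too, except on day 3 at ZT16, with 3782 CPM in the cluster against 3823 CPM in the class.

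The balance of the subunits in the Lyve1-Folr2 class differed from that in the other myeloid cells. In the Lyve1-Folr2 class there were 0.869 C1qb UMIs per C1qa UMI at ZT16 (95% interval 0.854 to 0.884) and 0.866 at ZT4 (0.852 to 0.880). In the monocyte-macrophage-like class the ratio was 1.47 at ZT16 and 1.55 at ZT4 on day 3, and 1.57 and 1.48 on day 1. The main clusters of that class all lay above 1. Cluster Dmkn-Vcan was at 2.39 at ZT16 and 2.27 at ZT4 on day 1, and cluster Arg1-Ppbp at 1.52 and 1.41, so the cluster with less C1q in all had more C1qb for each C1qa. Cluster Cbr2-Ccl8 was at 1.15 and 1.30 on day 3, between the Lyve1-Folr2 and the monocyte-macrophage-like classes. The ratio did not separate uninjured from injured muscle, since on day 0 cluster Lyz1-Retnla was at 1.62 at ZT16 and 2.05 at ZT4, and dendritic-like cells were at 1.15 and 1.32. C1qc per C1qa ran from 0.523 to 0.736 across the Lyve1-Folr2 and monocyte-macrophage-like libraries, with no such gap. Since capture can differ between genes, the ratios are set against each other across cells and not read as amounts of protein chains.

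**Figure D1:**
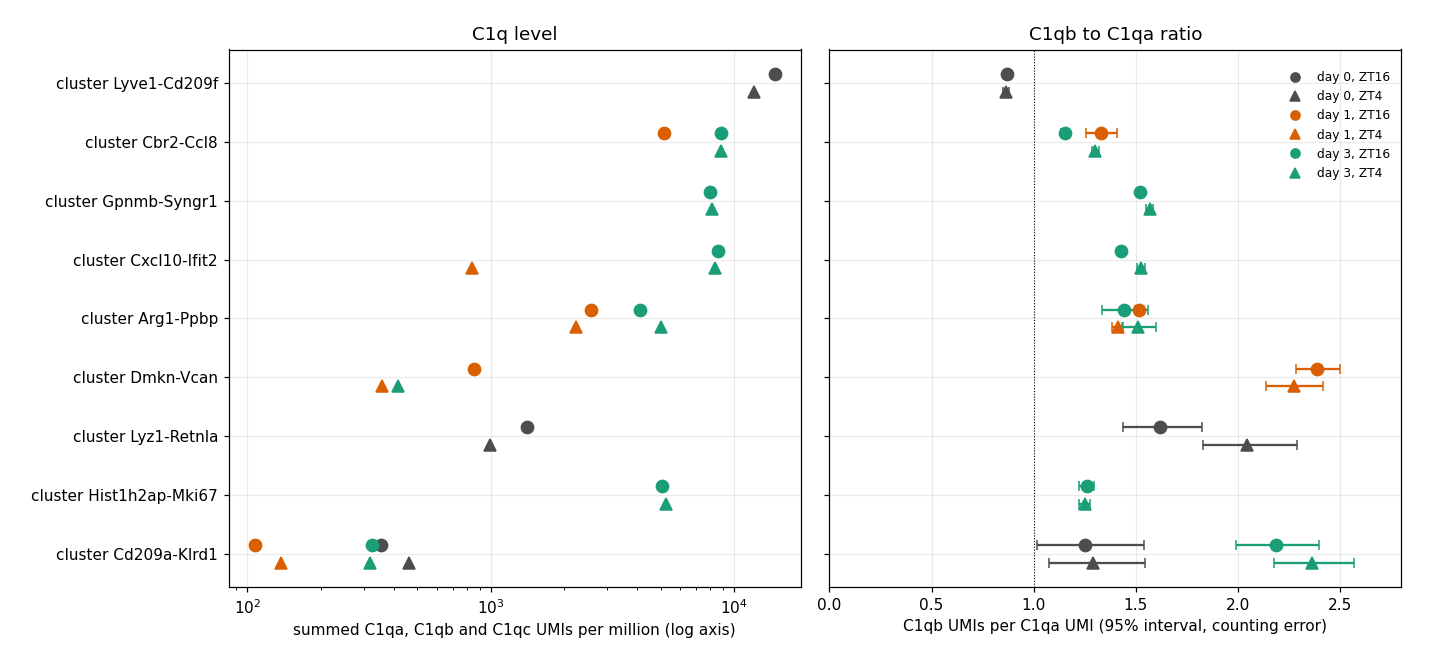
Summed C1qa, C1qb and C1qc level (left, CPM, log axis) and C1qb UMIs per C1qa UMI (right, with 95% counting intervals, for libraries with at least 150 C1qa UMIs in the cluster) for 9 myeloid clusters, 1 point for each library. The resident cluster Lyve1-Cd209f has the highest level and alone lies under a ratio of 1, while clusters Cbr2-Ccl8, Gpnmb-Syngr1 and Cxcl10-Ifit2 lie between 7946 and 8854 CPM on day 3.

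C1q was also counted outside macrophages, and the day with the highest level differed between classes. The dendritic-like class, which includes the dividing cluster, had summed C1q of 1948 CPM at ZT16 and 2174 CPM at ZT4 on day 3. The other classes given here were at 708.5 CPM or less. The 3 subunits summed to 49.7 CPM at ZT16 and 63.3 CPM at ZT4 in endothelial-like cells of day 3, to 11.9 and 77.7 CPM on day 1 and to 53.8 and 25.2 CPM on day 0, and to 708.5 CPM at ZT16 and 67.3 CPM at ZT4 in glial-like cells of day 0. T cell-like cells had 707.3 CPM at ZT16 and 353.8 CPM at ZT4 on day 3, against 8.1 and 11.1 CPM on day 0. Mature muscle-like cells had 94.4 and 655.6 CPM on day 3, against 28.1 and 20.1 CPM on day 0. The fibro-adipogenic-like cells were also highest on day 3. In fibro-adipogenic-like cells, the mesenchymal cells of muscle, C1qb was at 2.72 CPM at ZT16 and 6.53 CPM at ZT4 on day 0, at 2.16 and 1.83 CPM on day 1, and at 65.0 and 59.0 CPM on day 3. On day 3 these were far below the 3823 and 3794 CPM of the monocyte-macrophage-like class. On the same days the summed level of 16 monocyte-macrophage markers in these cells was 98.6 and 101.3 CPM, 157 and 109 CPM, and 751 and 666 CPM, and Csf1r, a defining macrophage receptor, was at 19.3 and 18.1 CPM on day 3. The C1qb to C1qa ratio in fibro-adipogenic-like cells of day 3 was 1.41 at ZT16 and 1.55 at ZT4, near that of the macrophages of that day. With the lowest class of each library subtracted as free RNA, C1qa of day 3 over day 0 in these cells was 4.73 at ZT16 and 2.56 at ZT4 on the log2 scale, against 3.39 and 2.52 without. At ZT4 it was 4.21 with doublets kept and 1.28 with cells thinned. The part of mixed droplets in these values was not tested.

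**Figure D2:**
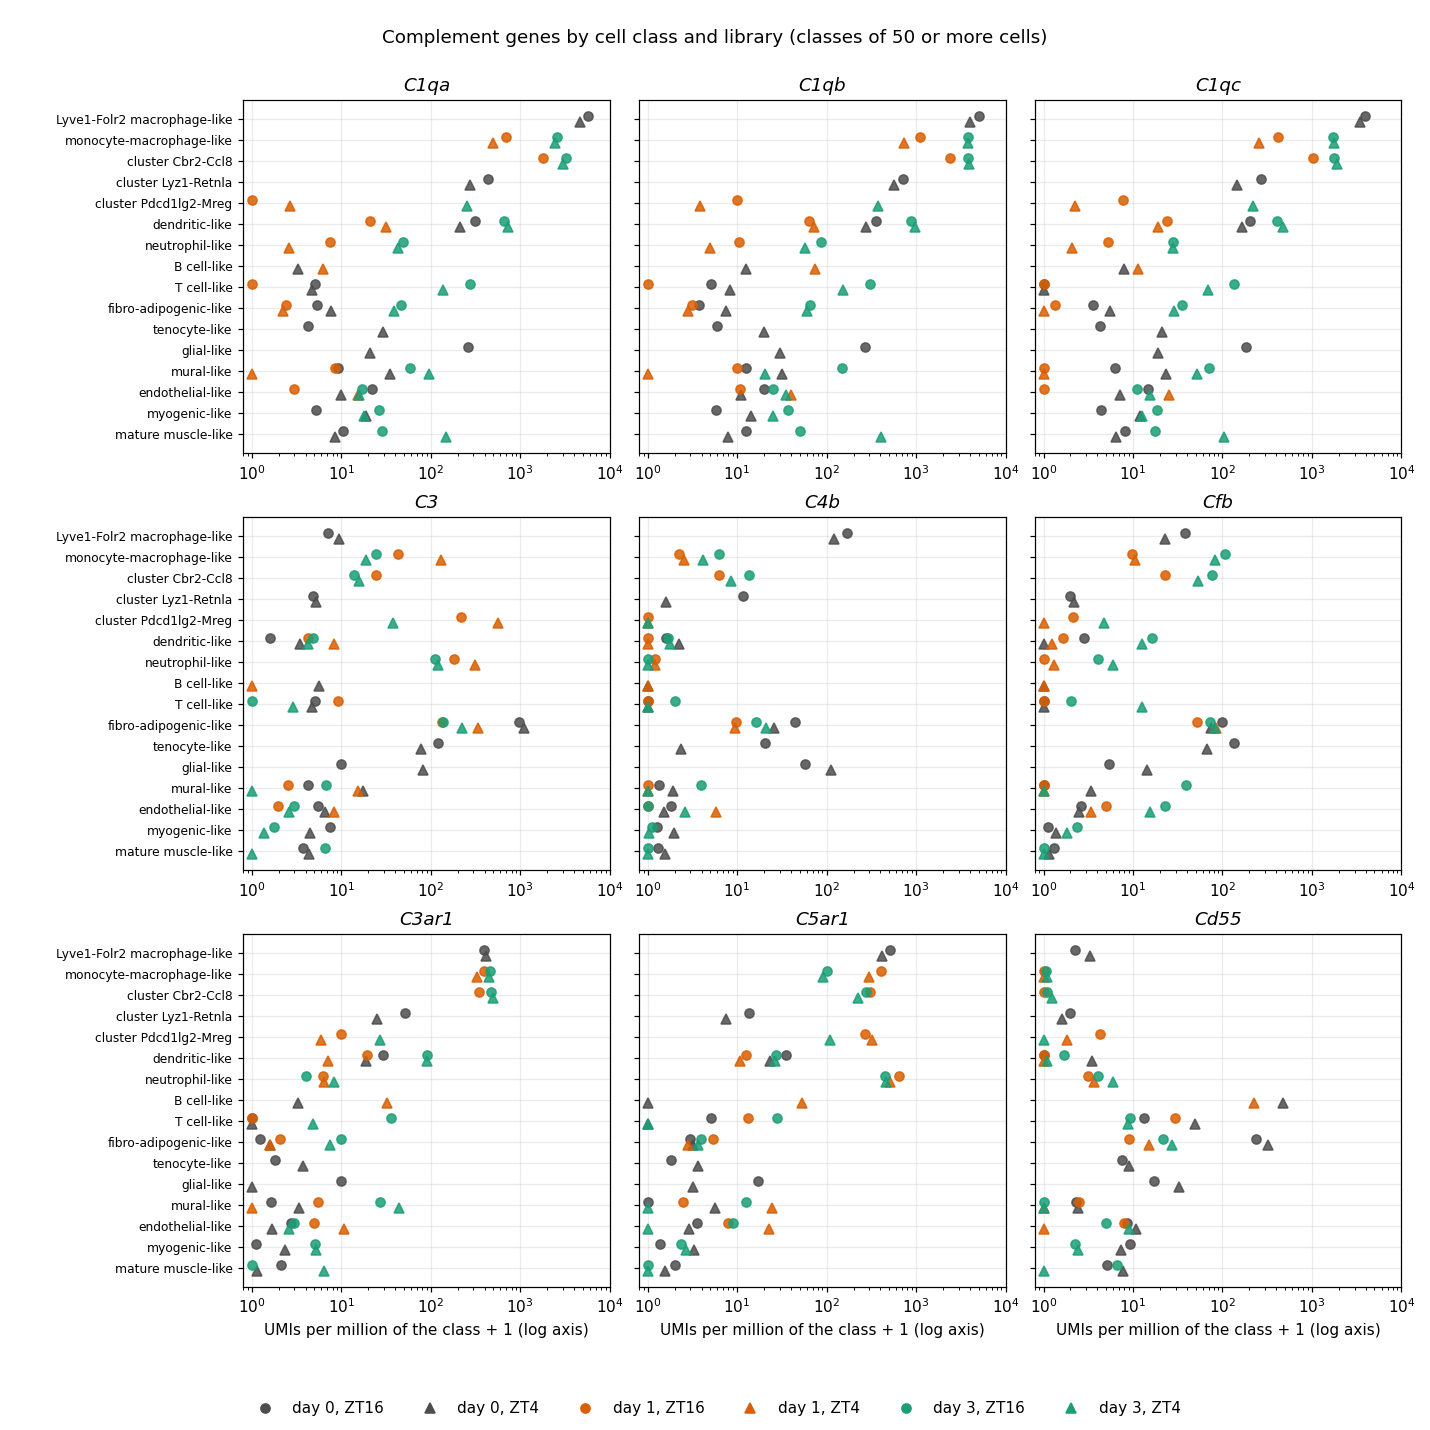
Level of each of the 9 genes (CPM + 1, log axis) in 16 cell classes and clusters, 1 point for each library with at least 50 cells of that class. C1q and C3ar1 are highest in macrophage rows, C5ar1 in neutrophil-like and macrophage rows, C3 in the fibro-adipogenic-like row, and Cd55 in the B cell-like and day 0 fibro-adipogenic-like rows, while Cfb is spread over tenocyte-like, fibro-adipogenic-like and day 3 macrophage rows.

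C3, the protein on which all pathways meet, had a stromal source before injury. Fibro-adipogenic-like cells held 98.5% of C3 UMIs at ZT16 and 98.7% at ZT4 on day 0. Their C3 level was 967.5 CPM at ZT16 and 1114 CPM at ZT4 on day 0, 131.7 and 338.9 CPM on day 1, and 134.5 and 222.7 CPM on day 3. All 4 libraries of injured muscle were below both libraries of uninjured muscle. The log2 difference of day 1 over day 0 was -2.88 at ZT16 (95% interval -3.03 to -2.73) and -1.72 at ZT4 (-1.84 to -1.60), and that of day 3 over day 0 was -2.85 and -2.32. On day 0 a C3 UMI was found in 64.1% of these cells at ZT16 and 66.1% at ZT4, against 1.4% and 1.5% of endothelial-like cells. The clusters of the class differed in C3 on day 0. Cluster Sema3c-Pi16, led by the adventitial fibroblast gene Pi16, had 1818 CPM at ZT16 and 1838 CPM at ZT4, cluster Gdf10-Inmt had 788 and 1042 CPM, and cluster Cxcl14-Smoc2 had 380.7 and 481.1 CPM. After injury the class was made up mostly of cluster Cxcl5-Postn, which had 121.5 CPM at ZT16 and 190 CPM at ZT4 on day 3, and 63.1 and 236.3 CPM on day 1.

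Markers of the stromal class moved in the same direction. The summed level of 14 fibro-adipogenic markers was 80278 CPM at ZT16 and 83677 CPM at ZT4 on day 0, 11809 and 20165 CPM on day 1, and 21601 and 27574 CPM on day 3, and none of the 14 was at 0. Dcn, the matrix proteoglycan decorin, was at 2542 CPM at ZT16 and 4970 CPM at ZT4 on day 1, against 19910 and 21930 CPM on day 0. Pdgfra, the receptor that defines these cells, was at 258.8 and 409.1 CPM on day 1, against 650.2 and 610.8 CPM on day 0. The part of this change of state, or of which cells were recovered, in the C3 values was not tested. Over all genes tested in this class the median log2 difference of day 1 over day 0 was -0.449 at ZT16 and -0.161 at ZT4. Relative to that median, C3 was at -2.42 and -1.55.

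On day 1 most C3 was in myeloid cells. The monocyte-macrophage-like class held 49.8% of C3 UMIs at ZT16 and 52.1% at ZT4, neutrophil-like cells 37.4% and 28.5%, and fibro-adipogenic-like cells 7.57% and 5.39%. By level, neutrophil-like cells had 180.9 CPM at ZT16 and 315.3 CPM at ZT4 on day 1. Cluster Pdcd1lg2-Mreg, an unnamed myeloid cluster that tied between monocyte-macrophage and neutrophil markers, had 217.5 and 564.4 CPM. In these 2 libraries the cluster was above fibro-adipogenic-like cells, which had 131.7 and 338.9 CPM, and neutrophil-like cells were above them at ZT16 but not at ZT4. In the monocyte-macrophage-like class C3 was at 23.5 CPM at ZT16 and 17.9 CPM at ZT4 on day 3, and at 41.9 and 129.3 CPM on day 1. On day 1 most of it sat in cluster Dmkn-Vcan, with 104.7 CPM at ZT16 and 249.7 CPM at ZT4, against 23.7 and 47.6 CPM in cluster Arg1-Ppbp. C3 and C1q therefore ran in opposite order over these clusters on day 1. By day 3 fibro-adipogenic-like cells again held the largest share, 49.4% at ZT16 and 68.2% at ZT4.

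C4b encodes mouse C4, the component cleaved by the C1 complex. Its reads can be hard to tell from those of C4a, since 489 of 499 aligned bases at their 3′ ends are the same. C4b values are uncertain for this reason. Few counts were given to C4a: over all kept cells of day 0 it had 5 UMIs at ZT16 and 7 at ZT4, against 2019 and 1573 for C4b. On day 0 it was held by both resident macrophages and stroma. The Lyve1-Folr2 class had 168.6 CPM at ZT16 and 121.5 CPM at ZT4, and 39.8% and 50.7% of the UMIs. Fibro-adipogenic-like cells had 43.7 CPM at ZT16 and 24.6 CPM at ZT4, and within them cluster Gdf10-Inmt had 105.7 and 85.3 CPM. Glial-like cells, 117 at ZT16 and 93 at ZT4, had 56.2 and 112.1 CPM. After injury C4b was at 20.0 CPM or less in every class with at least 50 cells. Fibro-adipogenic-like cells had 15.1 CPM at ZT16 and 20.0 CPM at ZT4 on day 3, and 8.64 and 8.54 CPM on day 1, and a whole library of day 1 held only 110 UMIs at ZT16 and 88 at ZT4.

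The stromal levels of Cfb overlapped between uninjured and injured muscle, and Cfb was higher in macrophages on day 3 than on day 1. In the stroma C3 was at least 2-fold below day 0 at both collection times on day 1 and on day 3. C4b was so on day 1 only, and Cfb on neither day. The annotation places the readthrough transcript Gm20547 over 79.5% of the exon bases of Cfb, and reads of the pair cannot be told apart. In fibro-adipogenic-like cells Cfb was at 98.3 CPM at ZT16 and 73.9 CPM at ZT4 on day 0, at 50.8 and 83.5 CPM on day 1, and at 71.6 and 81.4 CPM on day 3. The days overlapped, and the log2 difference of day 1 over day 0 was -0.95 at ZT16 and 0.18 at ZT4. In the monocyte-macrophage-like class Cfb was at 105.4 CPM at ZT16 and 80.7 CPM at ZT4 on day 3, and at 8.75 and 9.55 CPM on day 1. The log2 difference of day 3 over day 1 was 3.59 at ZT16 (95% interval 3.46 to 3.73) and 3.08 at ZT4 (2.93 to 3.23), and with cells clustered at resolution 0.5 it was 4.42 and 4.15. The clusters of the class differed. Cluster Cxcl10-Ifit2 had 187.3 CPM at ZT16 and 180.2 CPM at ZT4, whereas cluster Gpnmb-Syngr1 had 25.1 and 27.6 CPM in the same libraries. The class held 73.4% of Cfb UMIs at ZT16 and 66.9% at ZT4 on day 3, while on day 0 the fibro-adipogenic-like cells held 85.9% and 89.4%.

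**Figure D3:**
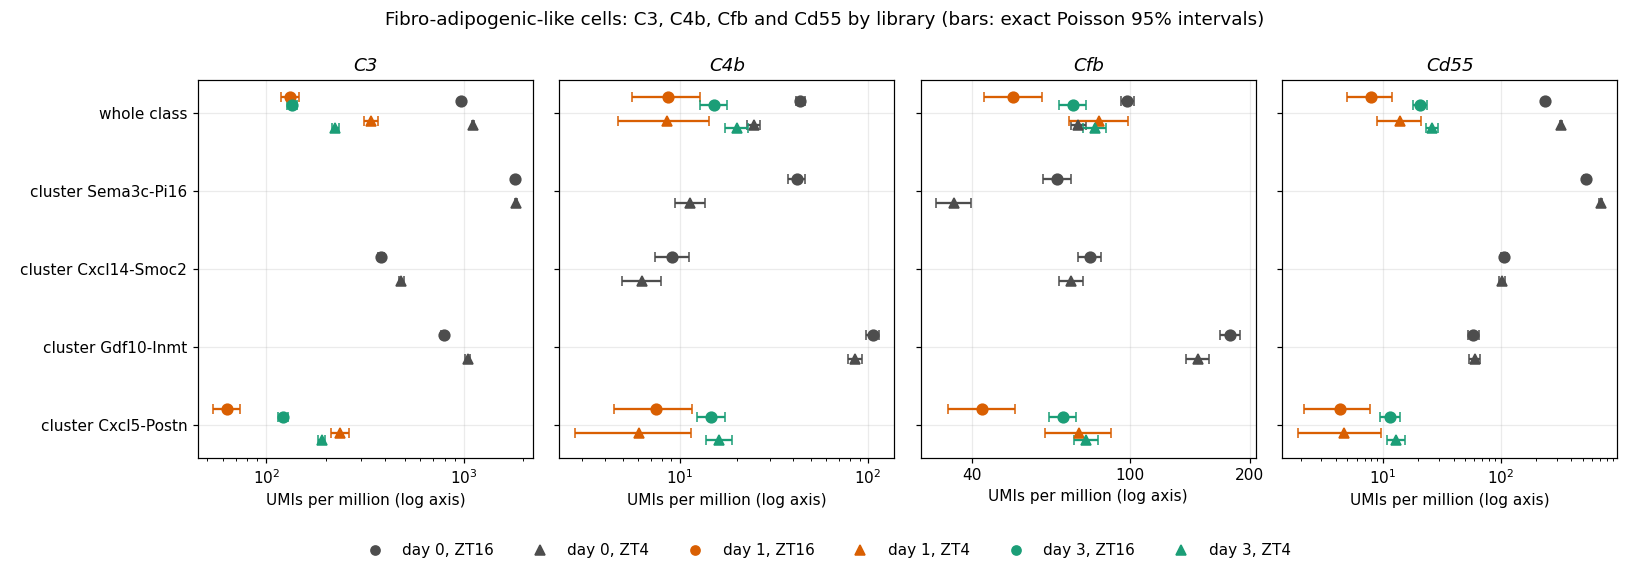
Level of C3, C4b, Cfb and Cd55 (CPM, log axis, bars exact Poisson 95% intervals) in the whole fibro-adipogenic-like class and in its 4 main clusters, 1 point for each library with at least 50 cells. C3 and Cd55 are lower in all 4 libraries of injured muscle, while the Cfb levels of the 3 days overlap.

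C3ar1 encodes the receptor for the C3 fragment C3a, and its level was similar in the resident, recruited and Cbr2-Ccl8 macrophages. The Lyve1-Folr2 class had 396.6 CPM at ZT16 and 418.9 CPM at ZT4 on day 0. The monocyte-macrophage-like class had 461 CPM at ZT16 and 452.7 CPM at ZT4 on day 3, and 391.3 and 331.9 CPM on day 1. Cluster Cbr2-Ccl8 had 466.2 and 501.9 CPM on day 3, and 346.5 CPM at ZT16 on day 1. Its order against the monocyte-macrophage-like class turned with the day, since it was higher on day 3 and lower on day 1 at ZT16. The ranges of these populations over libraries overlapped, and the next, cluster Lyz1-Retnla of day 0, was at a median of 37.4 CPM. Within the class on day 1 the receptor was lower in cluster Dmkn-Vcan, at 235.1 CPM at ZT16 and 162.1 CPM at ZT4, than in cluster Arg1-Ppbp, at 436.5 and 443.1 CPM. Neutrophil-like cells had 5.31 CPM at ZT16 and 5.47 CPM at ZT4.

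C5ar1, the receptor for the chemoattractant C5a, was shared between neutrophils and macrophages and differed between days in recruited macrophages. Neutrophil-like cells had 453.7 CPM at ZT16 and 459.9 CPM at ZT4 on day 3, and 644.3 and 508.1 CPM on day 1. On day 1 a C5ar1 UMI was found in 74.8% of these cells at ZT16 and 65.8% at ZT4. In endothelial-like cells of that day the share was 1.94% and 2.74%. The neutrophil-like cells had a median of 2483 and 2369 UMIs per cell and the endothelial-like cells 2272 and 2144. The Lyve1-Folr2 class had 515.8 and 410.1 CPM on day 0. The monocyte-macrophage-like class had 100.3 CPM at ZT16 and 90.4 CPM at ZT4 on day 3, and 409.2 and 296.1 CPM on day 1. The log2 difference of day 3 over day 1 was -2.03 at ZT16 (95% interval -2.08 to -1.98) and -1.71 at ZT4 (-1.76 to -1.66), so C5ar1 was lower and C1q higher on day 3 in this class. Cells of cluster Arg1-Ppbp that were still found on day 3, 68 at ZT16 and 107 at ZT4, had 313.2 and 437 CPM, against 90.3 and 78.4 CPM in cluster Gpnmb-Syngr1 and 100.9 and 77.8 CPM in cluster Cxcl10-Ifit2. Cluster Cbr2-Ccl8 had 275.8 and 225.8 CPM on day 3 and held 33.7% and 35.4% of C5ar1 UMIs then.

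Cd55 encodes decay-accelerating factor, a membrane protein that breaks up C3-cleaving enzymes on the cell that carries it. On day 0 fibro-adipogenic-like cells held 95.03% of its UMIs at ZT16 and 94.8% at ZT4. Their Cd55 level was 238.5 CPM at ZT16 and 324.4 CPM at ZT4 on day 0, 7.92 and 14.02 CPM on day 1, and 20.8 and 26.3 CPM on day 3. The log2 difference of day 1 over day 0 was -4.88 at ZT16 (95% interval -5.59 to -4.31) and -4.50 at ZT4 (-5.19 to -3.95), and -4.43 and -4.33 relative to the median of all genes. With cells thinned to 1000 UMIs it was -4.47 at ZT16 and -2.60 at ZT4. Cluster Sema3c-Pi16 carried most of it on day 0, with 528.7 CPM at ZT16 and 709.4 CPM at ZT4, against 106.8 and 103.5 CPM in cluster Cxcl14-Smoc2 and 58.9 and 60.2 CPM in cluster Gdf10-Inmt. On day 1 the class was held by cluster Cxcl5-Postn, which had 4.31 and 4.69 CPM, and a change of cells and a change within cells cannot be told apart. B cell-like cells had 224 CPM at ZT4 on day 1 and 476 CPM at ZT4 on day 0.

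**Figure D4:**
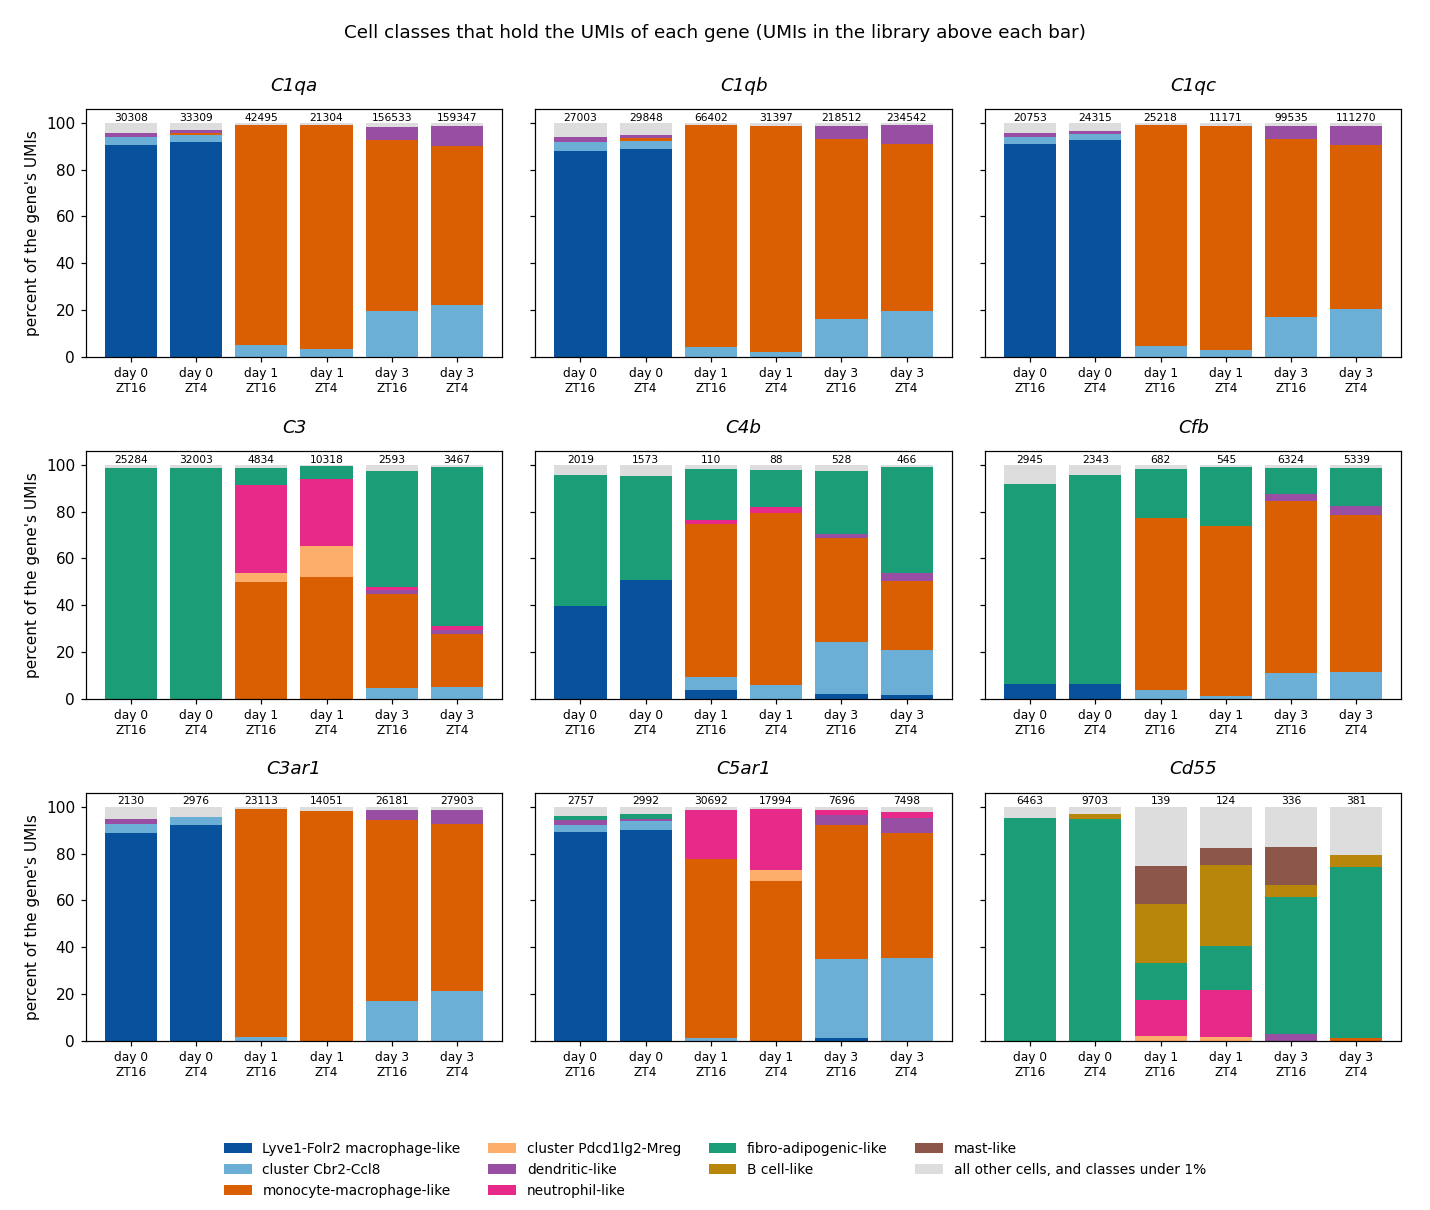
Percent of the UMIs of each gene held by each cell class in each library (bars stack to 100%, number of UMIs above each bar). The 3 C1q genes and C3ar1 pass from Lyve1-Folr2 macrophage-like to monocyte-macrophage-like cells between day 0 and day 1, while C3 and Cd55 leave the fibro-adipogenic-like class on day 1 and have their largest share in it again on day 3.

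Over all kept cells the balance of the 9 genes differed by day. C1qb was at 395.5 CPM at ZT16 and 466.3 CPM at ZT4 on day 0, at 801.2 and 501.4 CPM on day 1, and at 2195 and 1996 CPM on day 3. C3 was at 370.4 and 500 CPM on day 0, at 58.3 and 164.8 CPM on day 1, and at 26.1 and 29.5 CPM on day 3. Cd55 was at 94.7 and 151.6 CPM on day 0, at 1.68 and 1.98 CPM on day 1, and at 3.38 and 3.24 CPM on day 3. These values over all kept cells combine the number of cells of a type with the level within it. The fibro-adipogenic-like class had 2447 cells at ZT16 and 3022 at ZT4 on day 0, and 151 and 89 on day 1. Its C3 and Cd55 levels, given above, were also lower on day 1, and the size of each part was not tested. C5ar1 was at 40.4 and 46.8 CPM on day 0, at 370.3 and 287.3 CPM on day 1, and at 77.3 and 63.8 CPM on day 3, highest on day 1.

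The other genes of the system were read from a list of 45. A gene counted as past the size rule when it differed at least 2-fold in 1 direction at both collection times, with at least 30 UMIs in each pair of libraries. In fibro-adipogenic-like cells 5 of 8 members with enough UMIs were lower on day 1 than on day 0, where 19.0% of 12241 genes were, and 0 were higher, where 9.35% of genes were. The 5 were C3, C4b, Cd55, C1qa and C1qc, but C1qa and C1qc were at 6.63 CPM or less on both days and their direction turned with cells thinned or doublets kept. Of 17 other complement genes 10 were lower and 1, the integrin gene Itgb2, was higher. The lower ones included Serping1, the C1 inhibitor, at 256.3 CPM at ZT16 and 493.8 CPM at ZT4 on day 1, against 2038 and 2206 CPM on day 0. The protease genes C1s1 and C1ra were at 71.3 and 127.4 CPM and at 46.1 and 117.7 CPM on day 1, against 475.3 and 484.7 CPM and 267.6 and 274.7 CPM on day 0. C2, C7, Cd46, Clu, Vtn and Lrp1 were also among the lower ones. The median log2 difference was -1.86 at ZT16 and -1.67 at ZT4 over the members, -2.32 and -1.26 over the other complement genes, and -0.449 and -0.161 over all genes. Proteases of the classical pathway and inhibitors were both among the lower genes, and Cfb was not.

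In the same cells on day 3 against day 0, 4 of 9 members were higher, where 7.88% of 12785 genes were, and 2 were lower, where 12.4% of genes were. The higher ones were the 3 C1q genes and C3ar1, all at 65.0 CPM or less in these cells, and the lower ones were C3 and Cd55. The part of mixed droplets in the higher ones was not tested. Of 22 other complement genes 5 were higher, among them Itgam and Itgb2, the chains of complement receptor 3, and 8 were lower, among them Serping1, C1s1, C1ra and C7. C7, a component of the membrane attack complex, was at 0.31 CPM at ZT16 and 0.19 CPM at ZT4 on day 3, against 56.4 and 44.2 CPM on day 0. The median log2 difference over the members was 0.608 at ZT16 and 0.284 at ZT4, against -0.209 and -0.153 over all genes. Over the other complement genes it had the opposite sign to the members, at -0.88 and -0.433.

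In the monocyte-macrophage-like class on day 3 against day 1, 4 of 8 members were higher, where 12.7% of 11910 genes were, and 1 was lower, where 6.07% were. The higher ones were C1qa, C1qb, C1qc and Cfb, and the lower one was C5ar1. Of 18 other complement genes 6 were higher, C1ra, C2, Fcna, C8g, Itgax and Scarf1, and 3 were lower, Fcnb, Cfp and Itgam. Cfp, properdin, which stabilises the alternative pathway enzyme, was at 154.7 CPM at ZT16 and 165.1 CPM at ZT4 on day 3, against 336.8 and 384.7 CPM on day 1. Itgam was at 158.5 and 173.9 CPM on day 3, against 430 and 505.6 CPM on day 1. Itgax, a chain of complement receptor 4, was at 32.2 and 37.3 CPM on day 3, against 8 and 7.7 CPM on day 1. The alternative pathway genes Cfb and Cfp thus differed in opposite directions in this class. The median log2 difference over the members was 1.85 at ZT16 and 1.65 at ZT4, against 0.0479 and 0.0433 over all genes. Over the other complement genes it was -0.0995 and 0.0189, so the shift of the members was not shared by the wider list.

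The study compared collection times, and each day has 1 library at ZT16 and 1 at ZT4, so the time of day and the library cannot be told apart. By the size rule applied to that pair, 0 of 8 members differed in the Lyve1-Folr2 class on day 0, where 3.38% of genes did. In that class C1qa, C1qb and C1qc were higher at ZT16 by log2 differences of 0.30, 0.31 and 0.21, and C3ar1 was at -0.08 (95% interval -0.16 to 0.01). Cfb was at 37.6 CPM at ZT16 and 21.8 CPM at ZT4, a log2 difference of 0.79. The median over the members was 0.305, against 0.168 over the other complement genes and 0.0158 over all genes. In fibro-adipogenic-like cells on day 0, 1 of 8 members differed, C1qb at 2.72 CPM at ZT16 and 6.53 CPM at ZT4, where 5.38% of genes did, and with doublets kept its log2 difference turned to 0.693. In the same cells C4b was at a log2 difference of 0.83 (95% interval 0.69 to 0.97) and Cd55 at -0.44 (-0.49 to -0.40). The C4b difference was widest in cluster Sema3c-Pi16, with 41.9 CPM at ZT16 and 11.3 CPM at ZT4.

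On day 1 C3 was lower at ZT16 than at ZT4 in 4 myeloid and stromal populations. In the monocyte-macrophage-like class it was the 1 of 8 members past the size rule, where 4.41% of genes were, with a log2 difference of -1.63 (95% interval -1.70 to -1.56). In fibro-adipogenic-like cells it was the 1 of 4, where 6.28% of genes were, at -1.36 (-1.56 to -1.17). It was at -1.37 (-1.60 to -1.16) in cluster Pdcd1lg2-Mreg and at -0.80 (-0.89 to -0.72) in neutrophil-like cells. Within the monocyte-macrophage-like class C3 was also lower at ZT16 in each main cluster, as the values above show, and the mix of clusters differed too. C1q moved the other way in that class on day 1, with C1qa at 0.50, C1qb at 0.59 and C1qc at 0.69. Summed C1q at ZT16 and ZT4 was 2585 and 2244 CPM in cluster Arg1-Ppbp and 855.6 and 356.1 CPM in cluster Dmkn-Vcan. The part of the differing cluster mix in the C1q values of the class was not tested. The median over the members in the class was 0.352, against -0.0597 over the other complement genes and -0.0165 over all genes. In neutrophil-like cells on day 1 the 3 C1q genes were the 3 of 7 members past the rule, where 2.99% of genes were, but at levels of 1.07 to 9.52 CPM. The summed Lyve1-Folr2 macrophage markers in those cells were at 23.3 CPM at ZT16 and 9.97 CPM at ZT4, and their part in the result was not tested. The 2 libraries of day 1 also differed in depth, with medians of 4610 UMIs per cell at ZT16 and 3173 at ZT4.

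On day 3 no member passed the rule in any of the 3 populations examined. The count was 0 of 8 in the monocyte-macrophage-like class, where 1.77% of genes did, 0 of 8 in cluster Cbr2-Ccl8, where 2.93% did, and 0 of 9 in fibro-adipogenic-like cells, where 2.14% did. C1qb differed by 0.01 on the log2 scale in the monocyte-macrophage-like class (95% interval 0.0013 to 0.021), and C3 by -0.73 in fibro-adipogenic-like cells (-0.83 to -0.63). C3 was thus lower at ZT16 in fibro-adipogenic-like cells on all 3 days, by -0.20, -1.36 and -0.73, and in the monocyte-macrophage-like class it was 0.40 on day 3. Whether these differences vary with the day was not tested.

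**Figure D5:**
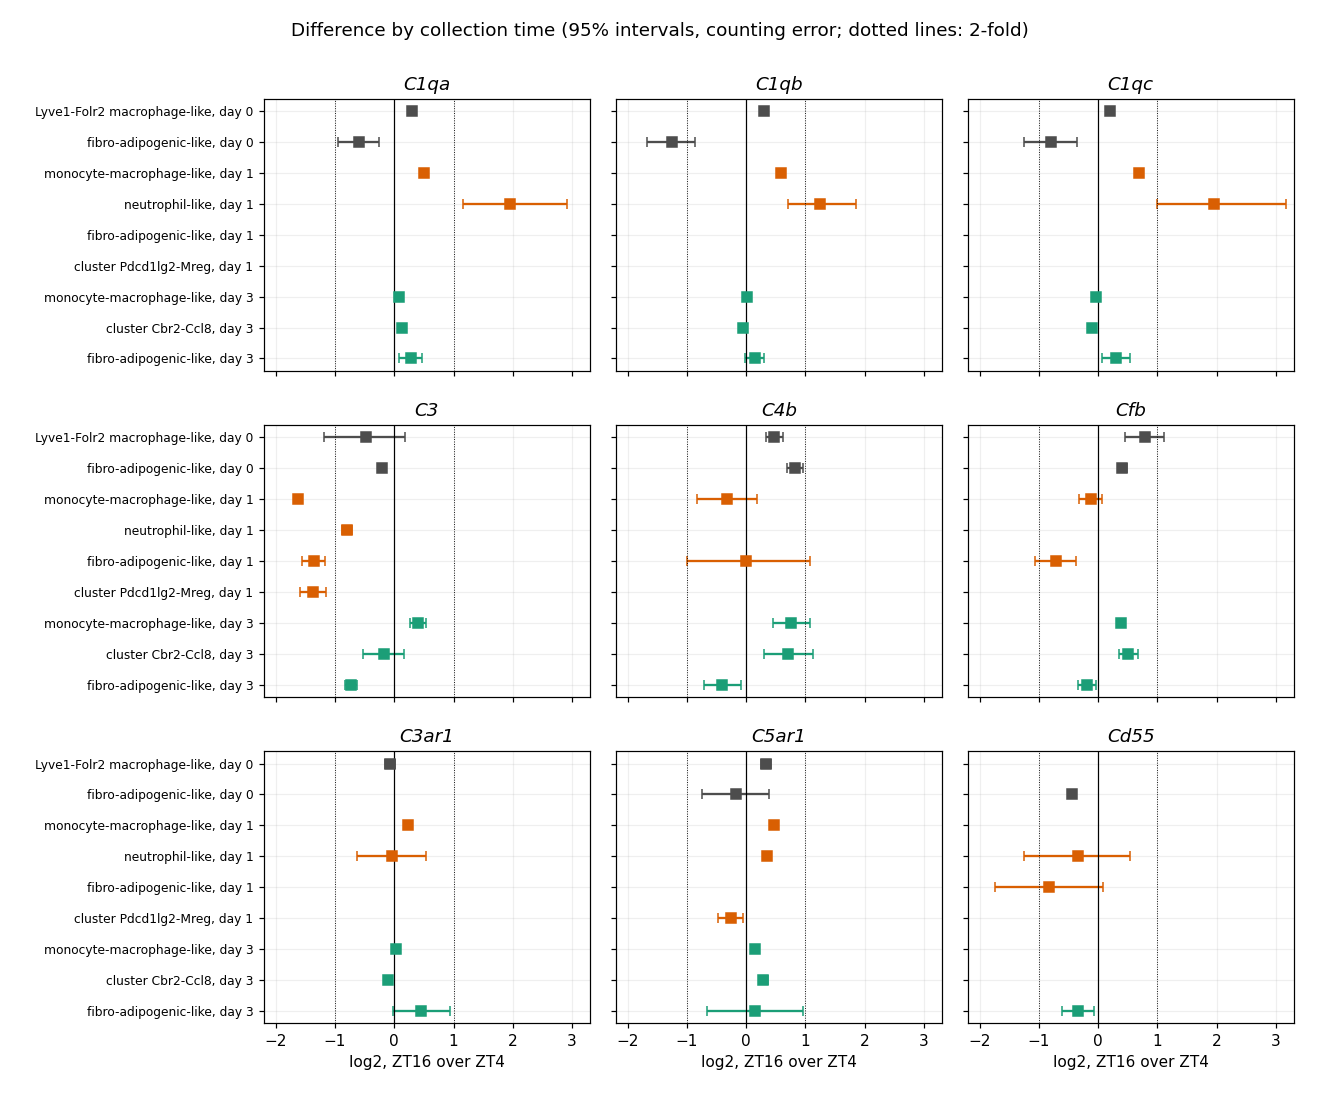
Log2 difference of ZT16 over ZT4 for each of the 9 genes in 9 pairings of class and day (squares, bars 95% counting intervals, colours days, dotted lines 2-fold, pairs with under 30 UMIs left out). On day 1 the C3 squares lie between -1.63 and -0.80, while most other squares away from low counts lie within 1 of 0.

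The genes most like each member were found by Pearson correlation of log2 CPM among 8215 genes. The correlation ran across 55 units, each a named class in 1 library. Unnamed clusters, among them Cbr2-Ccl8, Pdcd1lg2-Mreg and Lyz1-Retnla, were left out. It is given as a description, since units of a library share its depth and free RNA. The C1q subunits were each other's nearest, with r of 0.98 for C1qa and C1qc, 0.97 for C1qa and C1qb and 0.96 for C1qb and C1qc. C3ar1 was next for C1qa and for C1qc at 0.86, while its own nearest were Ccl12 at 0.92, F13a1 at 0.91 and Msr1 at 0.90. C5ar1 was nearest to Bst1 at 0.91, Cd300lb at 0.90 and Clec5a at 0.90. C3 was nearest to Pi16 at 0.84, Igfbp6 at 0.82 and Lbp at 0.80. C4b and Cfb both had Adam33 first, at 0.79 and 0.77. Cd55 had Gm15675 at 0.84 and then Hsd11b1 at only 0.62. Gm15675 is annotated as a noncoding RNA on the same strand, with 1835 bases between it and the 3′ end of Cd55, and reads past the end of Cd55 cannot be told from that RNA.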

How the data were processed

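The deposited values are UMI counts per gene and cell barcode for 6 libraries, made by the authors with Cell Ranger. Its version is given as 1.0.0 in the submitters' processing notes and 6.1.2 per the file headers, and the genome as mm10 per the submitters' processing notes. Barcodes with at least 200 genes, 500 UMIs and at most 10% mitochondrial UMIs were kept, and the highest scrublet doublet scores were removed at 0.8% per 1000 barcodes. Cells were clustered with scanpy 1.11.5 and leidenalg 0.10.2 (2000 variable genes, 30 components, 15 neighbours, resolution 1.0) without complement genes, and clusters were named from marker lists. Raw counts were summed by class and library and given as CPM, per 1000000 UMIs of the class, with exact Poisson 95% intervals. Fold differences used 0.5 UMI added to each count and exact conditional binomial intervals. Shares of cells have exact binomial intervals, and thinned shares used 1000 UMIs per cell. A difference of 2-fold with 30 UMIs in the pair was the size rule, since 1 library per group allows no test. The fold computation was tested on simulated counts.

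All 9 members are described. Of the 45 other complement genes, those past the size rule in the classes holding most member UMIs were to be named, and for each member the 3 genes of most similar pattern. The members, lists and marker genes were chosen with earlier results of these data known. Besides these settings, 12 other processing choices and 1 added after seeing the data were tried, and the closing section gives their effect. Intervals and floors cover counting error only. The values of 1 gene of the wider complement list are not reported here.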

Additional observations from a re-analysis of the deposited data

Results flagged for a closer look

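Some differences between collection times had opposite signs on day 0 and day 3 in the same class, each resting on 1 library per time and few UMIs. C1qb in mature muscle-like cells had a log2 difference of ZT16 over ZT4 of -2.95 on day 3 (9 UMIs at ZT16 and 74 at ZT4) and of 0.704 on day 0 (114 and 48 UMIs). C1qb in mural-like cells was at 2.79 on day 3 (51 and 5 UMIs) and at -1.41 on day 0 (35 and 65 UMIs). C1qc in myogenic-like cells was at 0.607 on day 3 (339 and 328 UMIs) and at -1.7 on day 0 (26 and 57 UMIs). None of these classes is a macrophage class, and whether the differences vary with the day was not tested.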

How the results depend on the processing

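No paired analysis was possible because each day and collection time has 1 library, so no replicate number is shared. Of 885 recomputed log2 differences of the members, 663 stayed within their interval and 215 moved beyond it. Another 7, all at least 2-fold with the main settings, turned sign. Smaller differences were sorted by their interval alone, so a turn of sign among them was not counted. The turned values were all low C1q counts in fibro-adipogenic-like cells: day 1 over day 0 for C1qa became 0.575 with cells thinned and 0.346 with the free RNA floor subtracted at ZT16 and 0.289 with doublets kept at ZT4, C1qb became 1.06 with doublets kept at ZT4, C1qc became 0.334 thinned at ZT16 and 0.131 with doublets kept at ZT4, and ZT16 over ZT4 on day 0 for C1qb became 0.693 with doublets kept.

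The moved values listed next kept their direction. C1qb in the monocyte-macrophage-like class, day 3 over day 1, was at ZT16 1.82 with doublets kept, 1.74 with the stricter cell filter, 1.84 and 1.78 at resolution 0.5 and 2.0, 1.82 with cluster Pdcd1lg2-Mreg added, 1.75 with the median gene at 0, 1.88 as a mean of cells and 1.87 thinned. At ZT4 the C1qb values in that order were 2.44, 2.33, 2.34 (resolution 0.5), 2.46, 2.34, 2.58 and 2.58. C5ar1 in the same comparison at ZT16 was -1.9 with doublets kept, -1.85 and -1.86 at resolution 0.5 and 2.0, -1.96 with complement genes clustered on, -2.08 with the median gene at 0 and -2.16 thinned, and at ZT4 it was -1.62 with doublets kept, -1.63 with the stricter filter, and -1.41 and -1.58 at the 2 resolutions. C3 in fibro-adipogenic-like cells, day 1 over day 0, was at ZT16 -3.04 with the stricter filter, -2.42 with the median gene at 0, -2.54 as a mean of cells and -2.52 thinned, and at ZT4 -1.98 with doublets kept and -1.55 with the median gene at 0. Cd55 there was -2.6 thinned at ZT4. C3 in the monocyte-macrophage-like class on day 1, ZT16 over ZT4, was -1.78 with Pdcd1lg2-Mreg added and -1.76 thinned. C1qa in the Lyve1-Folr2 class was 0.346 at resolution 2.0 and 0.328 thinned.

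Counts of members past the size rule changed as follows. No share over all genes was taken under these altered settings, so the counts are not read as results about the members. At 1.5-fold the members between collection times were 1 in the Lyve1-Folr2 class, 1 in cluster Cbr2-Ccl8, 4, 3 and 1 in fibro-adipogenic-like cells on days 0, 1 and 3, and 3 and 1 in the monocyte-macrophage-like class on days 1 and 3, and 2 members were lower there on day 3 than on day 1. With no minimum of UMIs 2 members passed in fibro-adipogenic-like cells on day 0, 2 on day 1, and 2 in the monocyte-macrophage-like class on day 1. With 100 UMIs, 1 member passed in neutrophil-like cells. With doublets kept, fibro-adipogenic-like cells had 0 members on day 0 and 2 on day 1 between collection times, and 2 higher and 3 lower members on day 1 against day 0. With the stricter filter or at resolution 0.5 the day 0 count was 0. The cause of these changes was not tested. Few cells limit the fibro-adipogenic-like values of day 1, with 151 at ZT16 and 89 at ZT4.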

Other observations

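Other complement genes also stood high in resident macrophages. On day 0 the Lyve1-Folr2 macrophage-like class had Cfp, properdin, at 402.7 CPM at ZT16 and 414.4 CPM at ZT4, and Fcna, a ficolin that starts the lectin pathway, at 253.4 and 217.9 CPM. Mural-like cells of day 0 had Vtn, vitronectin, an inhibitor of the membrane attack complex, at 2362 CPM at ZT16 and 3906 CPM at ZT4. Neutrophil-like cells of day 1 had C5ar2, the second C5a receptor, at 139.1 and 105.3 CPM.

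Some small populations held much of a gene. On day 3 at ZT16, 11 mast-like cells held 54 of the 336 Cd55 UMIs of the library, which is 16.1%. In glial-like cells of day 0, C1qa was at 260.3 CPM at ZT16 (176 UMIs) and at 20.2 CPM at ZT4 (9 UMIs), and the summed Lyve1-Folr2 macrophage markers in them were at 322.5 and 85.2 CPM. Their part in the glial C1qa value was not tested.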
